A study of Rattus norvegicus with 196 samples.

Results

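Dbp, Tef and Cirbp are genes whose RNA follows the time of day or body temperature, and their transcripts were examined in rat brain after chronic fluoxetine. They are 3 of the 29188 transcripts counted in every sample of the series. The members were taken by name from the study's list of transcripts that differed between fluoxetine-treated and control samples in several regions, so they were chosen by their measured difference between FT and Sham, which is given here as a description. Counts of regions in which they passed the study's thresholds describe the values behind that choice and are no independent test of the genes. The identifiers in the files are ENSRNOT00000028546 for Dbp, ENSRNOT00000026258 for Tef and ENSRNOT00000021648 for Cirbp.

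The samples came from 25 brain regions of male Long-Evans rats, which were 2 months old when treatment began. The FT group drank fluoxetine, a selective serotonin reuptake inhibitor, at 18 mg/kg for 6 weeks, and the Sham group drank water. The study describes the rats as naive, and no stressed group was sampled. Each of the 196 samples, 98 FT and 98 Sham, was a pool of punches of 1 region from several animals and carried the replicate number 1, 3, 4 or 5. The FT and Sham samples of 1 number were processed side by side, and the animals were killed in the late morning. Samples of different regions with the same number may come from the same animals, so the 25 regions are not independent repeats of the treatment. mPoA had 4 Sham and 2 FT samples and Arc had 2 Sham and 4 FT samples. The groups of 2 held the samples numbered 4 and 5 in both regions. The CGC pair numbered 1 was left out of the comparisons because the study had removed CGC outliers. The cortical regions were prelimbic (PLC), infralimbic (ILC), cingulate (CGC) and insular (InsularC) cortex, and the forebrain regions were the shell and core of the nucleus accumbens (NAcSh, NAcC), lateral and medial septum (LS, MS), bed nucleus of the stria terminalis (BNST), basolateral and centromedial amygdala (BLA, CMA), dorsal and ventral dentate gyrus (dorDG, venDG) and medial preoptic area (mPoA). The others were PVN, mediodorsal thalamus (MDT), habenula (HB), lateral and ventromedial hypothalamus (LH, VMH), arcuate nucleus (Arc), ventral tegmental area (VTA), periaqueductal grey (PAG), raphe, locus coeruleus (LC) and nucleus of the solitary tract (Nts).

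The mammalian clock is a loop in which CLOCK and BMAL1 switch on genes through a DNA element called the E-box, and the PER and CRY proteins that they induce shut them off again. Dbp and Tef encode PAR bZIP transcription factors, which pass this rhythm on to output genes by binding D-boxes. Dbp carries E-boxes that the clock drives directly, and its RNA cycles with a large amplitude in most tissues. Cirbp encodes the cold-inducible RNA-binding protein, whose RNA rises when a tissue cools slightly and falls when it warms, and whose product binds the RNA of core clock genes. Each sample pooled animals killed within a late-morning window, so a level here averages over part of a daily curve and carries no phase or amplitude. How the FT and Sham animals were spread over that window is not given. In bulk tissue, a change in the cells that make up a punch and a change in RNA per cell cannot be told apart.

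The 250 bases before each gene's start were taken from the RefSeq promoter table on the GRCr8 assembly, in which all 3 symbols were found. They are shown because the clock and temperature elements described for these genes are short DNA words that can be looked for in them. The files themselves were counted on another assembly, rn5, so no coordinate below comes from the counts. Capitals mark matches on either strand to CACGTG, the E-box, or to TCCCCGCC, a mild cold response element.
Dbp, chr1:105312006-105312255, plus strand: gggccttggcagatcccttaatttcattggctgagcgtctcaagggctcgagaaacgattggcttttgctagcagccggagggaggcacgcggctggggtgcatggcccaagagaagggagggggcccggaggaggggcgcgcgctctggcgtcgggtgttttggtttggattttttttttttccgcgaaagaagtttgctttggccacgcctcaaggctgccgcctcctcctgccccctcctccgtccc
Tef, chr7:115206577-115206826, plus strand: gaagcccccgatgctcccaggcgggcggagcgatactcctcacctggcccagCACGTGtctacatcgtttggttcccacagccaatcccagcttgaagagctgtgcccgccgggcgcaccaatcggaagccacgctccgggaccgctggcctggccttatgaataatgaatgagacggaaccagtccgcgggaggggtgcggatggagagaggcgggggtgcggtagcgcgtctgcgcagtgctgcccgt
Cirbp, chr7:10189476-10189725, minus strand: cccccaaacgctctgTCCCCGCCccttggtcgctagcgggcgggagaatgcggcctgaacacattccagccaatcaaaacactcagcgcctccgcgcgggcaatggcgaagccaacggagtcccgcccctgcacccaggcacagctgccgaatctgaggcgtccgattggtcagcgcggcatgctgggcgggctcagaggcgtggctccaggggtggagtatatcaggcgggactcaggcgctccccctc

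Tef held 1 E-box, 193 to 198 bases before its start, a word found in 5.59% of the 33469 promoters of this length. Cirbp held 1 mild cold response element, 228 to 235 bases before its start, found in 4.22% of promoters. None of the 3 windows held the D-box words TTATGTAA (0.828% of promoters) or TTACGTAA (0.108%), the RORE core AGGTCA (14.1%) or the heat shock element (0.663%). Dbp had no match to any of the searched words, which says only that these letters are not in these 250 bases. All 3 windows were rich in G and C, at 61.2% for Dbp, 65.6% for Tef and 67.2% for Cirbp, against a median of 51.2% over all promoters.

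Totals per sample ranged from 543403 to 50893913 counts on transcripts, apart from the Nts Sham sample of replicate 3, which held 4586 counts and 0 of the 3 members and enters no level or ratio below. It was kept in the fitted fold changes of Nts, where edgeR called 221 transcripts higher in FT with its pair and 0 without it. Replicate 3 was the shallowest number, with a median of 6309544.5 counts, and its 50 most abundant transcripts took a median of 68.2% of counts, against 34.8%, 29.9% and 28.3% in replicates 1, 4 and 5. The median share of reads on no annotated feature also differed by number. In replicates 1, 3, 4 and 5 it was 21.9%, 37.9%, 47.5% and 43.1% in FT and 25.6%, 39.2%, 41.1% and 46.9% in Sham. Its part in the levels of the members was not tested. The ILC Sham sample of replicate 3 was the next lowest in total and gave 9, 36 and 12 counts for Dbp, Tef and Cirbp. Levels are CPM, reads scaled to a common library size and adjusted by trimmed-mean factors, and they are compared within a gene only, since they are not divided by transcript length. Of 7 traced markers of the punched regions, 4 were highest in a region they mark, with Th (tyrosine hydroxylase) and Slc6a3 (the dopamine transporter) highest in VTA and Adora2a and Ppp1r1b (striatal projection neuron genes) highest in NAcC and then NAcSh. The other 3 were not. The PVN samples, which the study's region table places in the thalamus, had Sham means of 1.77 CPM for Avp, the ninth of 25 regions, and 5.65 CPM for Oxt (oxytocin), the seventh, against 282 CPM in VMH and 677 CPM in mPoA, and Hcrt (orexin) was higher in VMH at 209 CPM than in LH at 144 CPM.

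Cirbp was the member with the widest difference between FT and Sham samples, and that difference was largest in the samples numbered 4 and 5. In raphe, the Sham samples numbered 1, 3, 4 and 5 held 120.5, 84.4, 88.0 and 61.0 CPM and the FT samples held 168.8, 54.7, 1139 and 404.8 CPM. In PAG, the Sham samples held 159.6, 78.3, 86.7 and 138.2 CPM and the FT samples held 194.9, 86.4, 289.4 and 1776 CPM. The FT sample numbered 5 in PAG was the highest of all samples, while the FT sample numbered 3 lay inside the Sham range.

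The same order held in other parts of the brain. In VTA, Sham samples held 43.5, 87.3, 97.0 and 121.3 CPM and FT samples 215.4, 88.7, 297.7 and 1434 CPM. In dorDG, Sham samples held 142.7, 80.7, 103.2 and 112.5 CPM and FT samples 197.5, 79.0, 684.2 and 648.2 CPM. In PLC, Sham samples held 169.0, 71.9, 95.8 and 81.7 CPM and FT samples 125.5, 91.8, 287.8 and 572.4 CPM. In these 3 regions the FT samples numbered 4 and 5 were above every Sham sample, and at least 1 of the FT samples numbered 1 and 3 was not.

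Over all regions with a sample, Cirbp in the FT samples numbered 4 ran from 179 CPM in NAcC through a median of 383 CPM to 1139 CPM in raphe. In the FT samples numbered 5 it ran from 341 CPM in BNST through a median of 619.6 CPM to 1776 CPM in PAG. The FT samples numbered 1 had a median of 174.8 CPM and those numbered 3 a median of 90.3 CPM. The Sham medians were 142.7, 84.4, 97.0 and 87.2 CPM for numbers 1, 3, 4 and 5. All 25 FT samples numbered 4 and all 25 numbered 5 were thus above 168 CPM, the highest level among the Sham samples with those numbers.

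**Figure D1:**
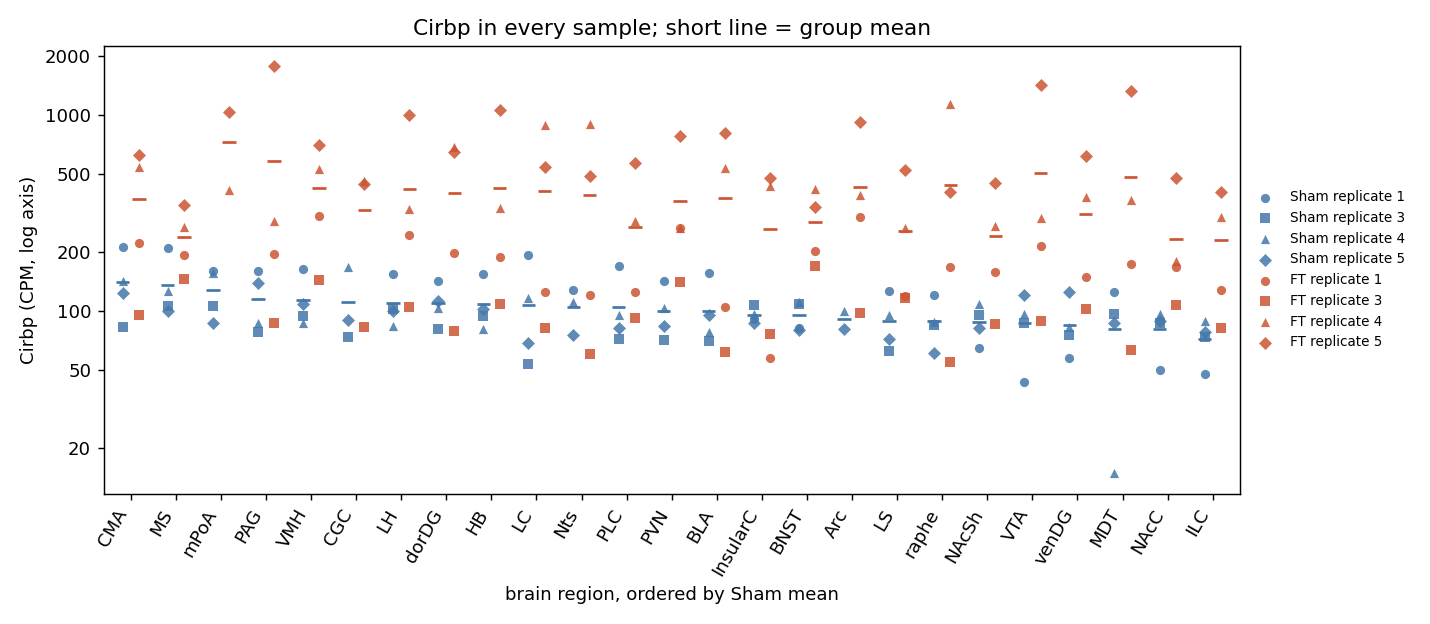
Cirbp in every sample used, in CPM on a log axis, by brain region ordered by Sham mean, with Sham in blue, FT in red, marker shape for the replicate number and a short line for the group mean. The FT samples numbered 4 and 5 sit between 179 and 1776 CPM in all 25 regions, while those numbered 1 and 3 sit between 54.7 and 304 CPM and overlap the Sham samples in most regions.

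Within numbered pairs, FT was above Sham in 25 of 25 regions in replicate 4 and in 25 of 25 in replicate 5, with median log2 ratios of 1.94 and 2.73. The FT sample was the higher one in 15 of 22 pairs of replicate 1 (median 0.48) and in 16 of 22 pairs of replicate 3 (median 0.18). Of the 17008 transcripts that passed the filter, 3.66% had FT higher in all 25 regions of replicate 4 and 9.25% in all 25 of replicate 5, while 19.8% and 18.5% had it higher in as many regions as Cirbp or more in replicates 1 and 3. The median log2 ratio over all these transcripts was between -0.012 and 0.0012 in each number. The Cirbp median was above that of 93.6%, 69.7%, 99.7% and 99.98% of transcripts in replicates 1, 3, 4 and 5. The ratios of replicate 1 ran from -0.67 in InsularC to 2.30 in VTA, and those of replicate 3 from -0.62 in raphe to 0.99 in PVN, so replicates 1 and 3 held ratios of both signs. The highest single ratio, 4.62 in MDT of replicate 4, stood on a Sham sample with 14.9 CPM, the lowest Cirbp level of the series.

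**Figure D2:**
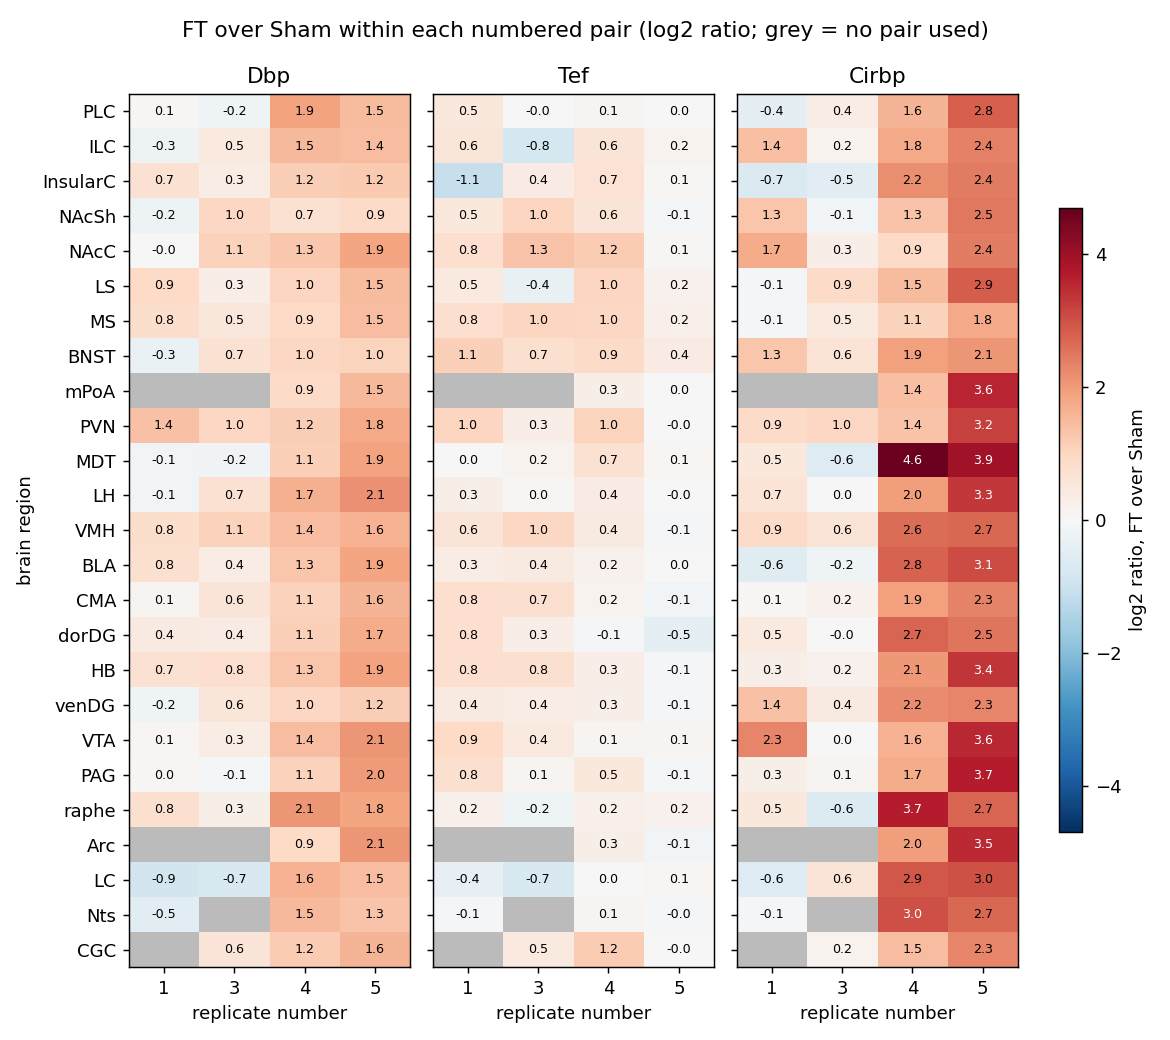
Log2 ratio of FT over Sham within each numbered pair, for Dbp, Tef and Cirbp (panels), 25 regions (rows) and 4 replicate numbers (columns); red is higher in FT, blue is higher in Sham and grey cells have no pair. Dbp and Cirbp are red in all 25 regions in columns 4 and 5 and of both signs in columns 1 and 3, while Tef is close to 0 in column 5.

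Fitted per region with the replicate number as a block, Cirbp had a positive log2 fold change in each of the 25 regions, and the median was 1.44. The highest was 2.75 (SE 0.38) in Arc, followed by 2.47 (SE 0.39) in mPoA, and the lowest was 0.74 (SE 0.31) in MS. In Arc and mPoA the only pairs were those numbered 4 and 5, the numbers with the widest Cirbp difference. The study's thresholds, which chose the gene, were an adjusted p of at most 0.1 together with a minimum fold change, and applied to these fits they were met by Cirbp in Arc, mPoA and Nts (3 regions) by edgeR and in 14 regions by DESeq2, the study's tool. Over all transcripts and regions, edgeR called 1.01% of tests higher in FT, with 13.7%, 4.85% and 1.8% in these 3 regions, and DESeq2 called 1.19%. In many other regions, such as PVN, VMH, dorDG and VTA, edgeR called 0 transcripts higher, so its calls do not rank the regions by difference. The thresholds were met in Nts only with the pair that holds the 4586-count library, and in 0 regions by edgeR without replicate 4, without replicate 5 or without the block, where DESeq2 gave 1. Those edgeR runs called few transcripts of any kind in most regions, so a count of 0 says little about the gene. Without the block edgeR called 1 transcript higher in mPoA and 0 in each other region, and without replicate 4 or 5 Arc and mPoA could not be fitted. They were met in 5 regions without replicate 1 and in 5 without replicate 3.

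Every FT sample was above every Sham sample for Cirbp in NAcC, BNST and mPoA. Over all transcripts and regions, 2% of combinations were separated in this way, with 0.858% in NAcC, 1.28% in BNST and 12.1% in mPoA. The mPoA FT samples were only those numbered 4 and 5. In NAcC, the Sham samples held 50.2, 86.6, 97.1 and 89.3 CPM and the FT samples 167.3, 107.0, 179.3 and 476.2 CPM. In BNST, the Sham samples held 82.0, 108.3, 111.6 and 79.9 CPM and the FT samples 203.1, 169.5, 421.7 and 340.7 CPM. In the other 22 regions at least 1 FT sample lay within or below the Sham range.

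No difference among regions was called for the Cirbp level in the Sham samples. The edgeR F test of any difference among the 25 regions gave an adjusted p of 0.617 over 96 Sham libraries, where 68.9% of all transcripts were called, and no region was called against the mean of the others, with 1 region at an unadjusted p under 0.05 and 0 called by DESeq2. The highest Sham mean was 140.7 ± 54.2 CPM (SD, n = 4) in CMA and the lowest was 72.3 ± 17.5 CPM (SD, n = 4) in ILC. Between them lay MS at 135.4 ± 50.3 CPM, PAG at 115.7 ± 39.5 CPM, LC at 108.0 ± 62.5 CPM, raphe at 88.5 ± 24.5 CPM and MDT at 80.8 ± 46.8 CPM (SD, n = 4 each). None of the 24 neighbours in this order differed by more than the larger of their SDs. The count was also 0 for Dbp, whose level was called different among regions, so steps between neighbours cannot show whether a level differs. The FT libraries gave an adjusted p of 0.487 in the same edgeR test, where 75.4% of transcripts were called, with FT means from 229.2 ± 150.5 CPM (SD, n = 4) in ILC to 726.8 ± 441.9 CPM (SD, n = 2) in mPoA. The 2 mPoA FT samples were those numbered 4 and 5, in which Cirbp was high. With the replicate number in the fit, mPoA stood 0.27 (SE 0.38) above the other regions on the log2 scale, below VMH at 0.45 (SE 0.27).

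Dbp, the PAR bZIP factor under direct clock control, was also higher in the FT samples numbered 4 and 5 than in their Sham partners in every region, with smaller median ratios than Cirbp. In raphe, the Sham samples numbered 1, 3, 4 and 5 held 43.9, 33.5, 32.1 and 33.9 CPM and the FT samples held 74.7, 40.8, 134.7 and 122.1 CPM. In HB, the Sham samples held 92.9, 57.9, 68.2 and 52.2 CPM and the FT samples 152.6, 101.1, 170.0 and 195.2 CPM. In HB the lowest FT sample was above the highest Sham sample, whereas in raphe the FT sample numbered 3 was below the Sham sample numbered 1.

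In PVN, Sham samples held 43.1, 37.8, 71.1 and 53.9 CPM and FT samples 111.5, 74.7, 158.6 and 183.7 CPM, with no overlap. In NAcSh, Sham samples held 199.4, 59.8, 80.6 and 78.9 CPM and FT samples 169.8, 117.6, 133.5 and 147.0 CPM. In LC, Sham samples held 103.7, 42.6, 51.3 and 51.9 CPM and FT samples 56.8, 25.7, 160.1 and 143.6 CPM. NAcSh overlapped through 1 high Sham sample, numbered 1, and LC was lower in FT in replicates 1 and 3 and higher in replicates 4 and 5.

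**Figure D3:**
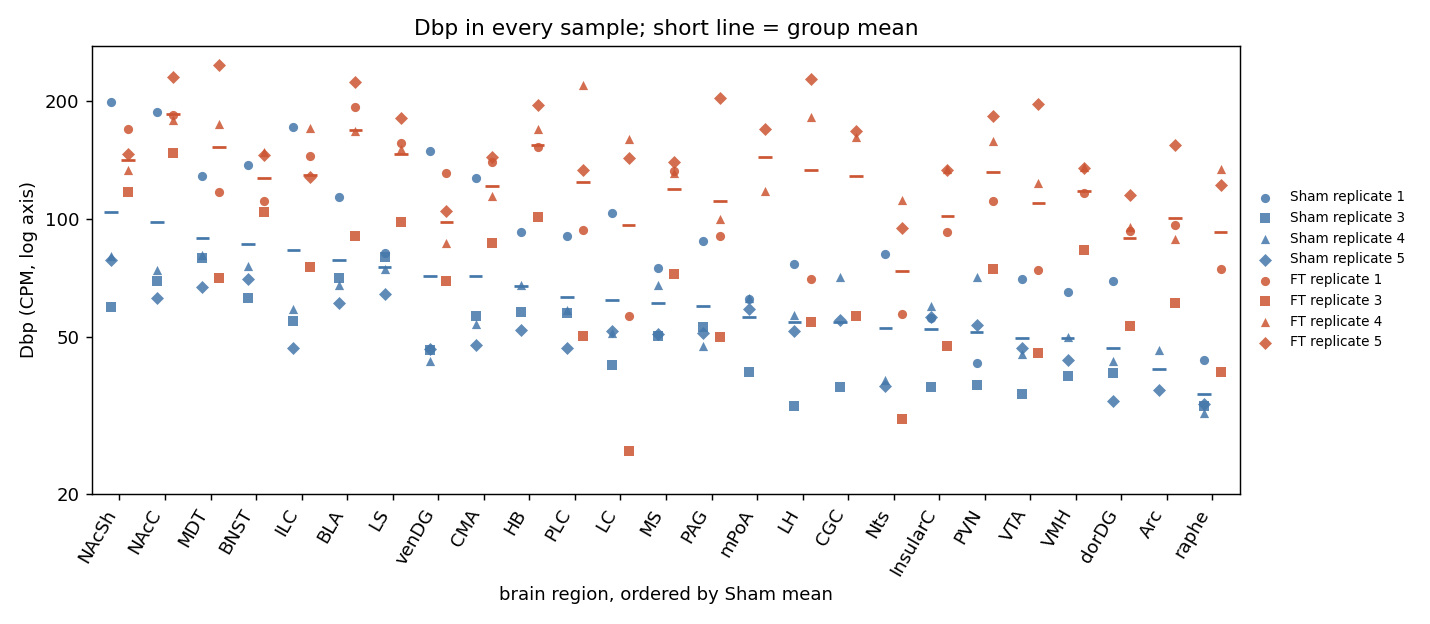
Dbp in every sample used, in CPM on a log axis, by brain region ordered by Sham mean, with Sham in blue, FT in red, marker shape for the replicate number and a short line for the group mean. FT samples numbered 4 and 5 lie between 86.8 and 247 CPM, and the Sham samples numbered 1 form the upper end of the Sham range in many regions.

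The Sham samples numbered 1 had the highest median of their group, of 88.0 CPM over regions against 50.3, 59.1 and 51.9 CPM in numbers 3, 4 and 5. The FT medians were 111.5, 70.4, 136.0 and 147.0 CPM in the same order. FT was above Sham within pairs in 13 of 22 regions in replicate 1 and 18 of 22 in replicate 3, and in 25 of 25 in both replicate 4 and replicate 5. The median log2 ratios were 0.06, 0.49, 1.16 and 1.60. FT was the higher one in as many regions or more for 32.4%, 8.58%, 3.66% and 9.25% of transcripts in replicates 1, 3, 4 and 5. The sign of the Dbp median in replicate 1 depended on scaling, with FT higher in 10 of 22 regions (median -0.02) under median-ratio size factors and in 18 of 22 (median 0.36) under library totals alone. In replicate 4 the ratios ran from 0.73 in NAcSh to 2.07 in raphe, and in replicate 5 from 0.90 in NAcSh to 2.13 in LH. The ratios of replicate 1 ran from -0.87 in LC to 1.37 in PVN.

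In the fits, Dbp had positive log2 fold changes in 25 of 25 regions, from 0.40 (SE 0.45) in LC to 1.52 (SE 0.28) in Arc, with a median of 0.91. PVN followed Arc at 1.31 (SE 0.25), then raphe at 1.23 (SE 0.28), mPoA at 1.19 (SE 0.28) and VMH at 1.18 (SE 0.24). In Arc and mPoA the only pairs were those numbered 4 and 5, the numbers with the highest median Dbp ratios. Their places in this order therefore do not compare with those of regions holding all 4 numbers. The thresholds that chose the gene were met by edgeR in Arc, raphe and mPoA, regions in which 13.7%, 3.08% and 4.85% of transcripts were called higher, and by DESeq2 in 14 regions. DESeq2 called 1.19% of tests higher over all transcripts and regions. In PVN and VMH, where the fold change was also high, edgeR called 0 transcripts higher. As for Cirbp, they were met in 0 regions by edgeR without replicate 4, without replicate 5 or without the block, where DESeq2 gave 1, and in 6 regions without replicate 1. The same limit holds, since the edgeR runs with 0 called few transcripts of any kind in most regions. All FT samples were above all Sham samples in 6 regions, LS, mPoA, PVN, VMH, HB and Arc, where the share of all transcripts so separated was 0.488%, 12.1%, 2.09%, 1.42%, 0.982% and 12.7%. The mPoA FT samples and the Arc Sham samples were only those numbered 4 and 5.

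The Dbp level differed by region in the Sham samples. This comparison did not choose the gene, although the same Sham libraries were part of the contrast that did. The edgeR F test gave an adjusted p of 1.16e-07, and it called 68.9% of all transcripts. Dbp was higher in NAcSh than in the mean of the other regions (log2 difference 0.66, SE 0.14, edgeR adjusted p = 0.000355), as it was in NAcC (0.57, SE 0.14, adjusted p = 0.0029), MDT (0.57, SE 0.14, adjusted p = 0.0028) and BNST (0.46, SE 0.15, adjusted p = 0.0314). It was lower in raphe (-0.77, SE 0.17, edgeR adjusted p = 0.00019) and dorDG (-0.46, SE 0.16, adjusted p = 0.0207). The share of all transcripts called higher was 7.41%, 8.49%, 8.55% and 5.59% in NAcSh, NAcC, MDT and BNST, and the share called lower was 10.8% in raphe and 14.1% in dorDG. Over all regions it was 9.39% higher and 5.89% lower. The block mattered here, since without it the F test gave an adjusted p of 0.0325 and none of the 6 regions was called, with 5 regions at an unadjusted p under 0.05. Leaving out replicate 1 gave 9 called regions, and leaving out replicate 3, 4 or 5 gave 4 each.

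By mean level, NAcSh came first at 104.7 ± 63.8 CPM (SD, n = 4), with NAcC at 98.6 ± 59.5 CPM, MDT at 89.4 ± 27.3 CPM and BNST at 86.7 ± 34.3 CPM next. Raphe came last at 35.8 ± 5.5 CPM (SD, n = 4), below Arc at 41.6 ± 6.9 CPM (SD, n = 2), dorDG at 47.1 ± 15.6 CPM (SD, n = 4) and VMH and VTA, both at 49.7 CPM with SDs of 11.2 and 14.8. The wide SDs in NAcSh and NAcC came from the Sham samples numbered 1, at 199.4 and 187.6 CPM. Within each number, raphe was the lowest of all regions in 3 of the 4 and the next to lowest in replicate 1. None of the 24 neighbours in the order differed by more than the larger of their SDs.

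The region order of Dbp in FT samples was similar, with a Spearman rho of 0.74 and a Pearson r of 0.70 between Sham and FT mean log2 levels over 25 regions. FT libraries alone gave an adjusted p of 1.42e-05 in the edgeR F test, which called 75.4% of all transcripts, and called 3 regions, NAcC (0.69, SE 0.16) and BLA (0.53, SE 0.16) higher and Nts (-0.78, SE 0.18) lower. Of all transcripts, 10.4% and 5.78% were called higher in NAcC and BLA and 13.1% lower in Nts. NAcC was the only region called in both groups. In FT the highest mean was 185.4 ± 34.1 CPM (SD, n = 4) in NAcC and the lowest was 73.8 ± 36.5 CPM (SD, n = 4) in Nts.

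Tef, the PAR bZIP factor related to Dbp, had the smallest median fitted fold change of the 3 genes, 0.24 on the log2 scale. Its median ratio within pairs was lowest in replicate 5, while in replicate 1 it was the highest of the 3 genes, at 0.53. In NAcC, the Sham samples numbered 1, 3, 4 and 5 held 210.3, 125.8, 83.4 and 166.3 CPM and the FT samples held 360.6, 316.4, 191.3 and 173.7 CPM. In BNST, the Sham samples held 132.6, 97.5, 83.5 and 112.8 CPM and the FT samples 287.4, 162.8, 157.8 and 147.8 CPM. In MS, the Sham samples held 104.6, 75.0, 61.5 and 99.1 CPM and the FT samples 180.9, 150.0, 119.9 and 116.6 CPM. The groups did not overlap in BNST and MS, as for 1.28% and 1.82% of transcripts there, and in NAcC the FT samples numbered 4 and 5 lay within the Sham range.

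Other regions showed no such gap. In raphe, Sham samples held 97.3, 85.1, 65.6 and 73.9 CPM and FT samples 114.1, 73.4, 77.7 and 84.5 CPM. In LC, Sham samples held 86.2, 80.4, 72.1 and 70.3 CPM and FT samples 65.2, 49.5, 72.7 and 74.6 CPM. In dorDG, Sham samples held 201.9, 194.4, 243.0 and 276.1 CPM and FT samples 344.8, 243.1, 227.8 and 202.0 CPM. The 4 FT samples of dorDG were higher than their Sham partners in replicates 1 and 3 and lower in replicates 4 and 5.

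**Figure D4:**
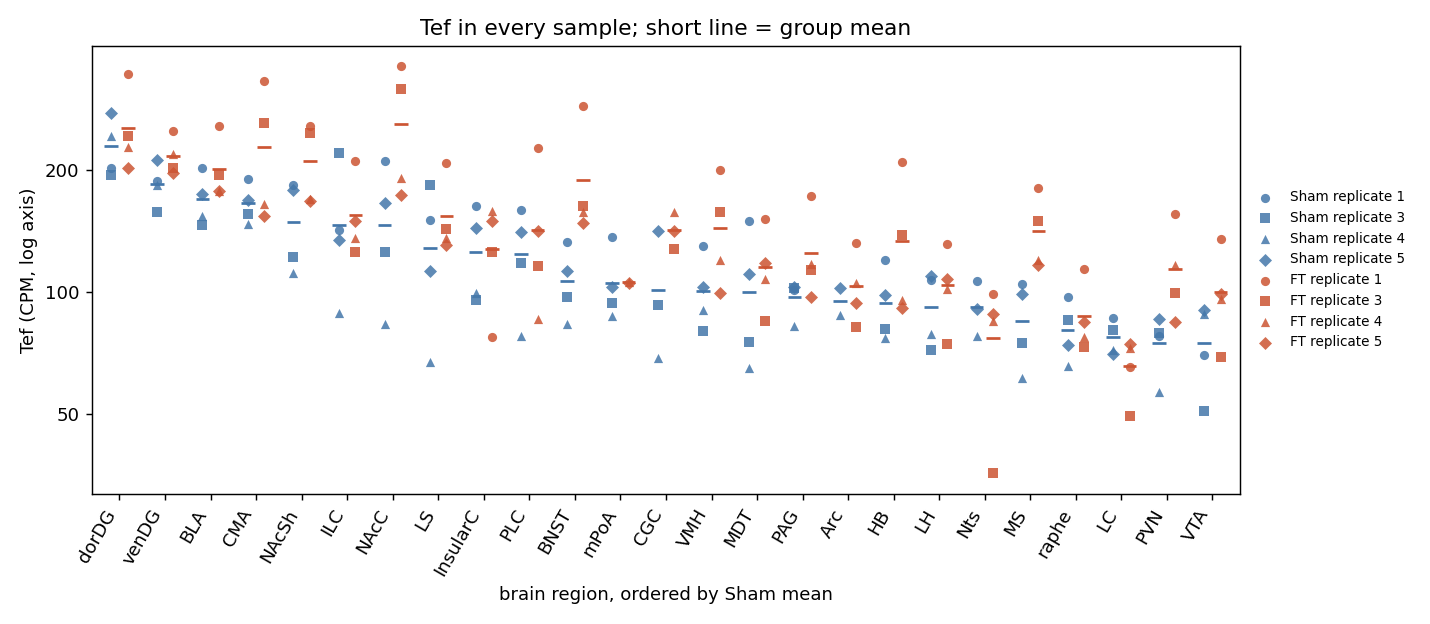
Tef in every sample used, in CPM on a log axis, by brain region ordered by Sham mean, with Sham in blue, FT in red, marker shape for the replicate number and a short line for the group mean. The Sham mean falls from 228.8 CPM in dorDG to 74.9 CPM in VTA, and the FT and Sham samples numbered 5 lie close together.

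Within pairs, FT was above Sham for Tef in 19 of 22 regions in replicate 1, 17 of 22 in replicate 3, 24 of 25 in replicate 4 and 13 of 25 in replicate 5. The median log2 ratios were 0.53, 0.38, 0.37 and 0.01. As many regions or more had FT higher for 3.6%, 13.4%, 7.06% and 47.2% of transcripts in replicates 1, 3, 4 and 5. In replicate 5 they ran from -0.45 in dorDG to 0.39 in BNST, while in the same replicate every ratio of Dbp was at least 0.90 and every ratio of Cirbp at least 1.79. The count in replicate 5 depended on scaling, with FT above Sham in 6 regions under median-ratio size factors and in 4 under library totals alone. Under these scalings its median in replicate 5 was -0.07 and -0.19, where the median over all transcripts was -0.10 and -0.19, while Dbp and Cirbp remained higher in FT in 25 of 25 regions in replicates 4 and 5.

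The fitted log2 fold change of Tef was above 0 in 23 of the 25 regions. Its median was 0.24 and its range ran from -0.27 (SE 0.19) in LC to 0.81 (SE 0.29) in NAcC. BNST at 0.77 (SE 0.21) and MS at 0.67 (SE 0.22) came next after NAcC. The thresholds were met by Tef in 0 regions by edgeR and in NAcC, BNST and MS by DESeq2, which called 2.41%, 0.687% and 1.75% of all transcripts higher there. In the same regions edgeR called only 10 of 13120, 0 of 13578 and 5 of 13281 transcripts higher, so its 0 says little about Tef.

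Tef levels differed by region in Sham samples, where the edgeR F test gave an adjusted p of 3.87e-15, the lowest of the 3 genes. That test called 68.9% of all transcripts. It was higher in both parts of the dentate gyrus than in the mean of the other regions, by 1.08 on the log2 scale in dorDG (SE 0.12, edgeR adjusted p = 2.53e-12) and by 0.76 in venDG (SE 0.12, adjusted p = 1.12e-06). The amygdala regions BLA (0.58, SE 0.12, edgeR adjusted p = 0.00044) and CMA (0.57, SE 0.12, adjusted p = 0.000454) were also higher, as was NAcSh (0.39, SE 0.13, adjusted p = 0.0295). It was lower in PVN (-0.58, SE 0.14, edgeR adjusted p = 0.00116), VTA (-0.55, SE 0.14, adjusted p = 0.00497), LC (-0.52, SE 0.14, adjusted p = 0.00294) and raphe (-0.46, SE 0.14, adjusted p = 0.00826). The shares of all transcripts called higher were 15.7%, 7.68%, 4.89%, 8.44% and 7.41% in the 5 higher regions, and those called lower were 5.24%, 3.33%, 11.8% and 10.8% in the 4 lower regions, in the same order. Without the block 4 of these 9 regions were called, and leaving out each number in turn left 6 to 11 regions called.

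The Sham mean fell from 228.8 ± 38.0 CPM in dorDG through 185.0 ± 22.1 CPM in venDG, 169.4 ± 25.4 CPM in BLA and 165.4 ± 18.9 CPM in CMA (SD, n = 4 each). At the lower end lay raphe at 80.5 ± 13.8 CPM, LC at 77.3 ± 7.4 CPM, PVN at 74.9 ± 12.6 CPM and VTA at 74.9 ± 18.4 CPM (SD, n = 4 each). The step from dorDG to venDG, 43.9 CPM, was the only one of 24 that was larger than both SDs. dorDG ranked first of 25 Sham regions in replicates 4 and 5, and rank 2 and rank 3 of 23 in replicates 3 and 1. NAcC, at 146.5 ± 54.4 CPM in Sham, was the highest of the FT means at 260.5 ± 92.2 CPM (SD, n = 4).

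FT libraries on their own gave an adjusted p of 1.54e-17 for Tef in the edgeR F test, which called 75.4% of all transcripts. They called 13 regions, 7 higher and 6 lower, where over all transcripts and regions 10.6% of contrasts were called higher and 7.29% lower. dorDG (0.89, SE 0.13) and NAcC (0.87, SE 0.13) were the highest and LC (-1.08, SE 0.16) was the lowest. Between Sham and FT mean log2 levels, Pearson's r was 0.83 and Spearman's rho 0.85 over 25 regions, against 0.44 and 0.46 for Cirbp. The highest Sham mean was 3.06 times the lowest for Tef, 2.92 times for Dbp and 1.95 times for Cirbp.

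The genes whose Sham levels over the 25 regions were most like each member were sought among 1844 named transcripts, all of which came from the study's own list. For Tef, they were Asphd2 (Pearson's r of 0.91), PHYHIP (0.88), Hpca (0.86), Mast3 (0.86) and Kctd4 (0.85). Hpca encodes hippocalcin, a neuronal calcium sensor abundant in the hippocampus. For Dbp, they were Rps6ka4 (0.79), the ribosomal protein genes Rpl41 (0.77) and Rpl37 (0.75), Pdzd4 (0.75) and Ppp1r1b (0.74), the last a gene of striatal projection neurons. In FT samples the r with Rpl41 and Rpl37 was 0.38 and 0.36, while that with Rps6ka4 was 0.74. For Cirbp no named transcript exceeded Slc2a12 at 0.60, followed by Cdc14b (0.56), Fstl5 (0.56), Farp2 (0.55) and RGD1311345 (0.55). In FT samples their r was 0.36, 0.87, 0.02, 0.62 and 0.75 in the same order. No difference among regions was called for Cirbp in Sham, so its likeness to these genes may rest on the spread between samples. These are descriptions over 25 regions whose samples share libraries and pools.

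Few other genes of the clock could be traced to an identifier in the files. Names came only from the study's list, which holds transcripts called in at least some regions of these same samples, so the traced genes are not independent of the treatment contrast. They were 1 of 15 core clock genes, 0 of 7 genes of clock protein turnover, 4 of 8 other outputs and, beside Cirbp, 1 of the 12 temperature-responsive genes.

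Some of the traced genes divided by replicate number in the opposite direction to Dbp and Cirbp. Rora, a nuclear receptor that activates Bmal1, had medians of -0.02, 0.05, -0.74 and -0.92 in replicates 1, 3, 4 and 5, and it was called by edgeR in 0 regions and by DESeq2 as lower in 2. Por, the cytochrome P450 reductase, had medians of 0.13, 0.19, -0.85 and -1.51 and was called lower in 4 regions by edgeR and 6 by DESeq2. Pdxk, a pyridoxal kinase that PAR bZIP factors are known to control in brain and liver, had medians of 0.37, 0.45, -1.21 and -1.17 and was called lower in 3 regions by each tool. Over all transcripts and regions, 0.913% of tests were called lower by edgeR and 0.808% by DESeq2. Hspb1, a small heat shock protein gene that rises with heat, had medians of 0.44, 0.74, -0.01 and 0.60, with positive fold changes in 25 of 25 regions and calls in 0 by edgeR and 4 by DESeq2. The neuropeptide genes Avp and Vip passed the filter in 8 and 25 regions, and edgeR called Avp higher in 2 and Vip lower in 1. DESeq2 called Avp higher in 4 regions and Vip higher in 1 and lower in 1.

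**Figure D5:**
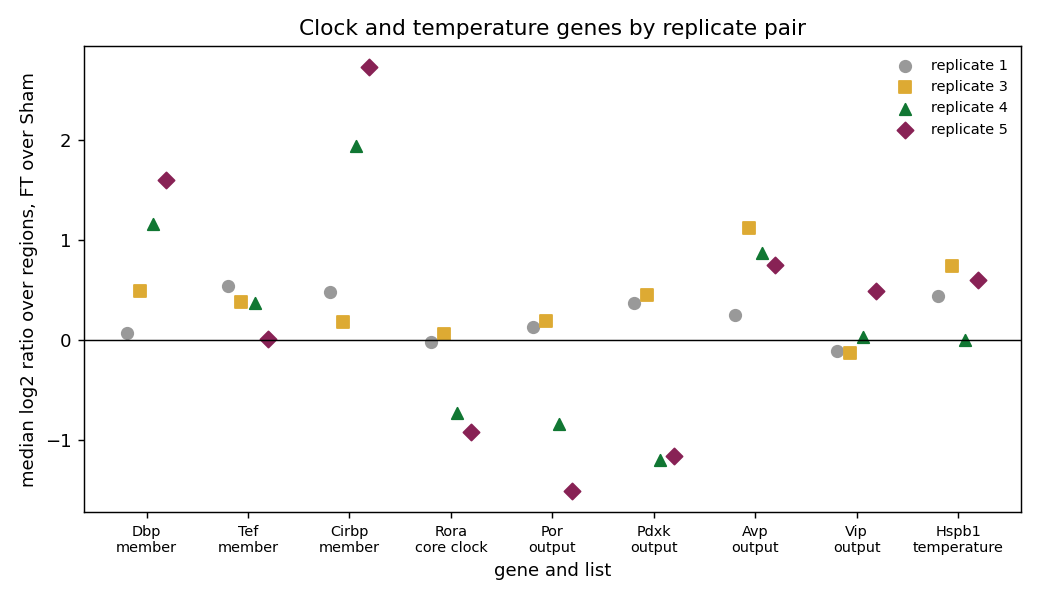
Median over regions of the log2 ratio of FT over Sham in each replicate number, for the 3 members and the traced clock and temperature genes, each point being 1 gene in 1 replicate number. Cirbp and Dbp are highest in replicates 4 and 5 while Rora, Por and Pdxk are lowest there, and Tef and Hspb1 show no such order.

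Markers of cell types were traced in part, and their ratios are given because some moved with the same numbers. Gad2, of inhibitory neurons, had median log2 ratios of -0.10, -0.32, -0.63 and -0.50 in replicates 1, 3, 4 and 5, and Slc17a6, of excitatory neurons, had 0.02, -0.41, -0.26 and 0.10. Gja1, of astrocytes, had -0.02, -0.11, -0.71 and -0.27. Of the microglial markers, Cx3cr1 had 0.12, 0.20, -0.77 and -0.77 and C1qa had 0.46, 0.40, 0.37 and 0.32. Ttr, of the choroid plexus, ran with medians of 0.05, -0.35, -1.12 and -0.55. Of 30 listed markers of cell types, these 6 were traced, and none for oligodendrocytes or endothelium. The 2 traced neuronal markers summed to 23.6 to 629 CPM in Sham and 31.0 to 820.1 CPM in FT samples, Gja1 to 103 to 525 CPM and 132 to 392 CPM, and the 2 microglial markers to 15.9 to 87.6 CPM and 17.4 to 146 CPM. Ttr ran from 1.88 to 67352 CPM in Sham and from 0.396 to 105432 CPM in FT samples, and of all these values 1 microglial one was at 0. Their part in the levels of the 3 members was not tested.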

How the data were processed

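Bulk RNA-seq was performed on 196 pooled punch samples of rat brain. The authors aligned paired-end reads of a stranded total RNA kit to rn5 with STAR and counted them per Ensembl transcript with HTSeq, and they deposited raw read counts for each sample. The strand setting of the counting was not given in the sources used here, and a median of 5.52% of reads were ambiguous between features. The names of the members came from the study's supplementary list of transcripts called in 2 or more regions. Members and gene lists were chosen with earlier results of these data known.

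FT and Sham were compared per region with edgeR 4.0.16 (quasi-likelihood test, TMM factors, filterByExpr, replicate number as a block) with Benjamini-Hochberg adjustment over all transcripts tested. Sham levels were compared among regions in 1 fit with region and replicate number as terms, on libraries of at least 100000 counts, at an adjusted p of 0.05. The scripts were tested on simulated data. DESeq2 1.42.0 (R 4.3.3), median-ratio factors, no low-count filter, no block and leaving out each replicate were the alternatives. Log2 ratios used CPM with a prior count of 2, and SDs are over samples. Samples with the same number were processed in parallel, and the mean correlation of their deviations from group means was between -0.07 and 0.73 over the 25 regions, with a median of 0.60, every pair being over 0.1 in 24 regions. Named genes were the members, the list genes that could be traced (except 1 that is not reported here) and, for each member, the 5 named transcripts with the highest r over regions in Sham. The samples of a group are separate pools of animals. With the replicate number as a term, p-values measure the spread left after differences between numbers are taken out. They do not measure the whole spread between pools, and libraries of different regions with 1 number may share animals.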

Additional observations from a re-analysis of the deposited data

Results flagged for a closer look

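Samples that lay far from the other 3 of their group were sought in the 141 groups of 4 samples, on the log2 scale, by the ratio of the gap to the whole range against Dixon's critical value. Chance alone marks about 1 in 20 such groups, and 11 were found. For Dbp, the Sham samples numbered 1 were high in NAcC at 187.6 CPM (others 63.2 to 74.2), CMA at 127.5 CPM (47.9 to 56.6) and venDG at 149.7 CPM (43.6 to 46.7). The Sham samples numbered 3 were low for Dbp in InsularC at 37.3 CPM (56.1 to 60.3) and mPoA at 40.7 CPM (59.1 to 63.0). The FT samples numbered 3 were low for Dbp in CGC at 56.6 CPM (162 to 197) and MS at 72.7 CPM (131 to 139.7). For Tef, the Sham sample numbered 4 in PAG was low at 82.2 CPM (101 to 103), the FT sample numbered 1 in BNST was high at 287.4 CPM (148 to 163) and the FT sample numbered 3 in Nts was low at 35.7 CPM (84.7 to 98.7) on 68 counts. For Cirbp, the Sham sample numbered 4 in MDT was low at 14.9 CPM (87.2 to 124.6) on 169 counts. In CGC, the pair numbered 1 that the comparisons leave out was counted among the 4.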

How the results depend on the processing

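The median log2 fold change over regions stayed positive for all 3 genes in every alternative run. Numbers of called regions moved more. For Dbp, edgeR called 3 regions, DESeq2 with the replicate block 14, edgeR with no low-count filter 15 and edgeR with no replicate block 0, and DESeq2 with no replicate block called 1. For Cirbp the same counts were 3, 14, 22, 0 and 1, and for Tef 0, 3, 1, 0 and 0. In most regions edgeR called more transcripts of any kind with no low-count filter, as in NAcSh with 516 of 21872 higher against 0 of 13416. With no block it called 1 of 14886 higher in mPoA and 0 in each other region. Leaving out each replicate gave 0 to 6 called regions and medians of 0.62 to 1.16 for Dbp, 0 to 5 regions and medians of 0.92 to 1.85 for Cirbp, and 0 regions and medians of 0.17 to 0.36 for Tef. For Sham levels, the test with no replicate block called 0 regions for Dbp instead of 6 and 4 for Tef instead of 9, and FT libraries in place of Sham called 3 for Dbp. Leaving out each replicate gave 4 to 9 regions for Dbp and 6 to 11 for Tef. Among alternatives chosen after seeing the data, FT was above Sham for Tef in replicate 5 in 6 regions with median-ratio factors and 4 with library totals, instead of 13. Dbp changed sign in 1 of 224 single-region values over the alternatives, Tef in 7 of 224 and Cirbp in 0 of 224. The cause of each of these differences was not tested. Depth limits replicate 3 most, where Dbp rested on as few as 9 counts.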
